A study of Homo sapiens with 12 samples.

Results

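The 4 class III POU genes, POU3F1, POU3F2, POU3F3 and POU3F4, were followed in human neural progenitor cells (NPCs) with and without the catalytic domains of the H3K27me3 demethylases JMJD3 and UTX. They are 4 of the 58302 genes counted, found by matching Ensembl identifiers to symbols, and they were chosen by name across all 6 groups after earlier results of these data were known. Their levels and differences are therefore given as a description without a test. RNA was sequenced in 12 samples of H1, an established human embryonic stem cell line, with 2 samples in each of 6 groups. WT NPCs and dKO NPCs at passage 2, WT NPCs and dKO NPCs at passage 4, and WT-D28 and dKO-D28 cells were compared. The dKO cells carry a deletion of the catalytic domain in both JMJD3 and UTX, and the WT cells are H1 with neither deletion. JMJD3 was targeted first in H1, with Cas9, a homologous donor and puromycin selection of clones. Its antibiotic cassette was then removed with Cre, and UTX was targeted by the same procedure. The study's methods name no such steps for the WT cells, so effects of these steps cannot be told apart from genotype. How many dKO clones the samples represent is not given in the sources used here. All NPCs were derived under inhibition of both SMAD branches and grown as spheres. The day 28 cells were plated from passage 2 NPCs and kept for 28 days without FGF2 and EGF, in medium with GDNF, BDNF and cAMP. The labels name passage 4, and passage 2 is taken from the study's text.

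POU3F factors carry a bipartite DNA-binding POU domain that reads octamer-like sequences, often beside a SOX protein on the same enhancer. POU3F1 (OCT6) is known from the developing epiblast, the forebrain and myelinating Schwann cells. POU3F2 (BRN2) and POU3F3 (BRN1) act together in cortical progenitors and upper-layer neurons, POU3F2 is also required in hypothalamic neuroendocrine neurons and is used with MYT1L and other factors to convert fibroblasts to neurons, and POU3F4 (BRN4) acts in the inner ear, striatum and neural tube.

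Total counts ran from 756942 to 10601172 per sample, and 3 counts, used as the limit that a count of 0 allows, corresponded to 3.96 CPM (counts scaled to library size) in the shallowest sample and 0.283 CPM in the deepest. The WT and dKO passage 2 libraries were the shallowest. The 2 dKO-D28 samples stood apart from each other, with a chi-square of 11.3 per degree of freedom over genes against 1.57 to 2.72 for the other 5 pairs, so the dKO minus WT differences at day 28 of the POU3F genes, and those of other named genes that were called, are also given with either dKO-D28 sample left out. Neural progenitor markers (8 of 8 in the files) summed to between 3333 and 7434 CPM in the 12 samples, mostly from VIM and NES. Single markers differed more. From passage 2 to day 28 in WT, PAX6 went from 300 and 258 to 11.7 and 11.5 CPM. PROM1 went from 102 and 94.0 to 2.84 and 2.97 CPM, and FABP7 the other way, from 127 and 109 to 407 and 421 CPM. HES5 had 19 counts over the 12 samples. The pluripotency genes POU5F1 and NANOG had no count in any sample. KDM6A (UTX) ran from 27.3 to 60.4 CPM and KDM6B (JMJD3) from 115 to 185 CPM at the NPC and dKO-D28 stages and up to 202 CPM in WT-D28. KDM6A had 39.2 and 38.3 CPM in dKO against 60.4 and 53.6 CPM in WT NPCs at passage 2. At passage 4 it had 31.4 and 27.3 against 49.7 and 53.1 CPM, and at day 28 the genotypes overlapped. KDM6B was higher in dKO at passage 4, at 185 and 181 against 115 and 126 CPM. At day 28 it was lower in dKO, at 144 and 150 against 202 and 186 CPM. These counts cover the whole gene, so they do not check the deletion of the catalytic domain. In bulk RNA, fewer cells that express a gene and less RNA per cell cannot be told apart.

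The 250 bases in front of each RefSeq start (GRCh38.p14) are shown because 3 of the 4 genes had lower levels in the dKO NPCs at both passages and the start regions share a visible element. Capitals mark the CCAAT box, searched as CCAAT on both strands (ATTGG where it lies on the other strand), an element chosen after the sequences had been seen. POU3F1, whose genotypes overlapped at both passages, holds the element as well. A link between the element and the levels was not tested.

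POU3F1: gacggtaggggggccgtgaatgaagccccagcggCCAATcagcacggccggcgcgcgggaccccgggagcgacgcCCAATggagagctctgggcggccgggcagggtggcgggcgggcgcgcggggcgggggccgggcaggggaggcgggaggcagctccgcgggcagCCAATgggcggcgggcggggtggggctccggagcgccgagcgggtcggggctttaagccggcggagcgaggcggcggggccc
POU3F2: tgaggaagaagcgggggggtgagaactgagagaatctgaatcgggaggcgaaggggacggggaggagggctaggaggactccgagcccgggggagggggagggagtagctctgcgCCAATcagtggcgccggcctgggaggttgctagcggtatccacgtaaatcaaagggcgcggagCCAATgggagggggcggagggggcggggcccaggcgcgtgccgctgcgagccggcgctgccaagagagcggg
POU3F3: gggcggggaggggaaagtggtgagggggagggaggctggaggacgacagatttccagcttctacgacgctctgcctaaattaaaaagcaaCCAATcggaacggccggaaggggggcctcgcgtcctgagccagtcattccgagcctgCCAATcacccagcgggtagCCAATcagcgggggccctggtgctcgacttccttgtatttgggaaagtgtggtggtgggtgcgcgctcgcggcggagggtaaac
POU3F4: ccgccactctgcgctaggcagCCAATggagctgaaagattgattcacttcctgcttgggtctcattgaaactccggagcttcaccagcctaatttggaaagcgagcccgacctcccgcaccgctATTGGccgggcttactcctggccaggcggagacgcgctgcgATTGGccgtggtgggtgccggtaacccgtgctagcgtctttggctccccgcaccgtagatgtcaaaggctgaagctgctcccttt

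These windows lie at chr1:38046794-38047043 on the minus strand for POU3F1, and on the plus strand at chr6:98834324-98834573 for POU3F2, chr2:104853865-104854114 for POU3F3 and chrX:83508040-83508289 for POU3F4. The POU3F3 window is intronic to a longer GENCODE transcript of the gene, and the POU3F4 window lies within an antisense gene. The CCAAT box occurred 3 times in the window of POU3F1, 2 times in that of POU3F2 and 3 times each in those of POU3F3 and POU3F4. Of 35114 RefSeq windows of the same length, 32.0% held at least 1 CCAAT box and 9.53% held 2 or more. The octamer ATGCAAAT, searched on both strands, was in 0 of the 4 windows and in 1.63% of all windows. The GC content was 80.8% for POU3F1, 69.2% for POU3F2, 62% for POU3F3 and 60% for POU3F4, against a median of 58% over all windows.

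POU3F1 is at chr1:38043829-38046793, POU3F2 at chr6:98834574-98839458, POU3F3 at chr2:104853287-104858574 and POU3F4 at chrX:83508290-83512127 (hg38, GENCODE release 44). POU3F1, POU3F2 and POU3F4 have a single exon, whereas POU3F3 has a second, spliced transcript. The 4 paralogs were largely separable by sequence: of all 50-base stretches of the exons, 1.51% of those of POU3F1 and 0.917% of those of POU3F3 were shared with each other, and none of POU3F2 was shared with any gene. With an overlapping lncRNA of the same strand counted in, 7.04% of the POU3F3 stretches were shared, and 23.1% of those of POU3F4 were shared with an antisense gene. The strand setting of the counting is not given in the sources used here, so reads in those overlaps cannot be assigned with certainty, and the value of POU3F4 is the most exposed to this.

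POU3F2 was expressed most in WT NPCs and was lower in dKO cells at every stage. Its levels were 116 and 83.0 CPM in WT NPCs and 34.8 and 27.9 CPM in dKO NPCs at passage 2. At passage 4 the WT NPCs had 172 and 203 CPM and the dKO NPCs 18.9 and 19.6 CPM. At day 28 the WT-D28 samples had 33.1 and 31.9 CPM and the dKO-D28 samples 19.1 and 7.80 CPM. Both dKO samples were below both WT samples at each of the 3 stages, and the distance between the genotypes was widest at passage 4. The fitted log2 difference, dKO minus WT, was -1.64 (SE 0.33) at passage 2, -3.28 (SE 0.27) at passage 4 and -1.31 (SE 0.29) at day 28, or 3.11-fold, 9.74-fold and 2.48-fold lower. The day 28 difference depended on which dKO-D28 sample was kept, at -2.04 without the first and -0.76 without the second. Between passages the values had opposite signs, with a log2 difference of 0.95 (SE 0.26) for WT NPCs from passage 2 to passage 4 and -0.70 (SE 0.35) for dKO NPCs. In the order of levels, WT-D28 and dKO NPCs at passage 2 overlapped, as did dKO NPCs at passage 4 and dKO-D28, and the other neighbouring groups did not.

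POU3F3 was the most abundant of the 4 genes in every sample, also per exonic length. It had 302 and 291 CPM in WT NPCs at passage 2 against 241 and 173 CPM in dKO NPCs. At passage 4 it had 289 and 278 CPM in WT NPCs against 71.3 and 61.4 CPM in dKO NPCs. The day 28 samples had 117 and 109 CPM in WT-D28 and 154 and 75.5 CPM in dKO-D28. The dKO samples were below the WT samples at both passages, by a narrow margin at passage 2, and at day 28 the 2 dKO-D28 samples lay on either side of the WT-D28 samples. The fitted log2 difference, dKO minus WT, was -0.52 (SE 0.31) at passage 2, -2.09 (SE 0.30) at passage 4 and 0.01 (SE 0.28) at day 28. The passage 4 difference was -2.91 once GC content and gene length were corrected for, and the day 28 difference turned to -0.57 without the first dKO-D28 sample and was 0.45 without the second. From passage 2 to passage 4 POU3F3 differed by -0.06 (SE 0.29) in WT NPCs, or 0.40 after the GC and length correction, and by -1.64 (SE 0.31) in dKO NPCs. The groups were ordered WT at passage 2, WT at passage 4, dKO at passage 2, dKO-D28, WT-D28 and dKO at passage 4, with overlap only between dKO-D28 and WT-D28 among neighbours.

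POU3F4 had the largest fitted genotype difference of the 3 fitted genes at both passages and was nearly gone from both genotypes at day 28. WT NPCs had 66.9 and 47.7 CPM at passage 2 and dKO NPCs 15.5 and 3.48 CPM. WT NPCs at passage 4 had 43.8 and 41.8 CPM and dKO NPCs 2.54 and 2.17 CPM. At day 28 the WT-D28 samples had 0.709 and 0.892 CPM, from 6 and 9 counts, and the dKO-D28 samples had 2.39 and 0.190 CPM, from 10 counts and 1 count. The groups did not overlap at either passage and overlapped at day 28, where the second dKO-D28 sample was under the limit of 3 counts. The log2 difference, dKO minus WT, was -2.58 (SE 0.53) at passage 2 and -4.16 (SE 0.51) at passage 4, or 5.98-fold and 17.9-fold lower. At passage 2 it was -3.999 without the first dKO sample and -1.85 without the second. At day 28 the fitted value of 0.53 (SE 0.89) gave no direction, since it was -1.91 without the first dKO-D28 sample, 1.53 without the second and -0.70 after the GC and length correction. In dKO NPCs the difference from passage 2 to passage 4 was -1.97 (SE 0.71), which was -0.56 without the first passage 2 sample and -2.70 without the second, while WT NPCs differed by -0.39 (SE 0.40).

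POU3F1 was scarce throughout and did not pass the filter of a mean of 20 counts per sample, with a mean of 18.6, so no fold change was fitted for it with the others. It had 11.6 and 3.67 CPM in WT NPCs and 1.48 and 4.18 CPM in dKO NPCs at passage 2, from 2 to 9 counts per sample. At passage 4 it had 2.30 and 4.55 CPM in WT NPCs and 4.38 and 1.69 CPM in dKO NPCs. The genotypes overlapped at both passages. At day 28 the WT-D28 samples had 6.03 and 8.82 CPM, from 51 and 89 counts, and the dKO-D28 samples 1.19 and 0.951 CPM, from 5 counts each. Day 28 was thus the only stage at which the POU3F1 levels of the genotypes did not overlap, and when every gene with a count was fitted the log2 difference there was -2.83 (SE 0.46), 7.13-fold lower in dKO-D28. It was -2.97 without the first dKO-D28 sample and -2.67 without the second. POU3F1 was also the only one of the 4 whose WT-D28 samples lay within the range of the WT passage 2 samples rather than below it.

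**Figure D1:**
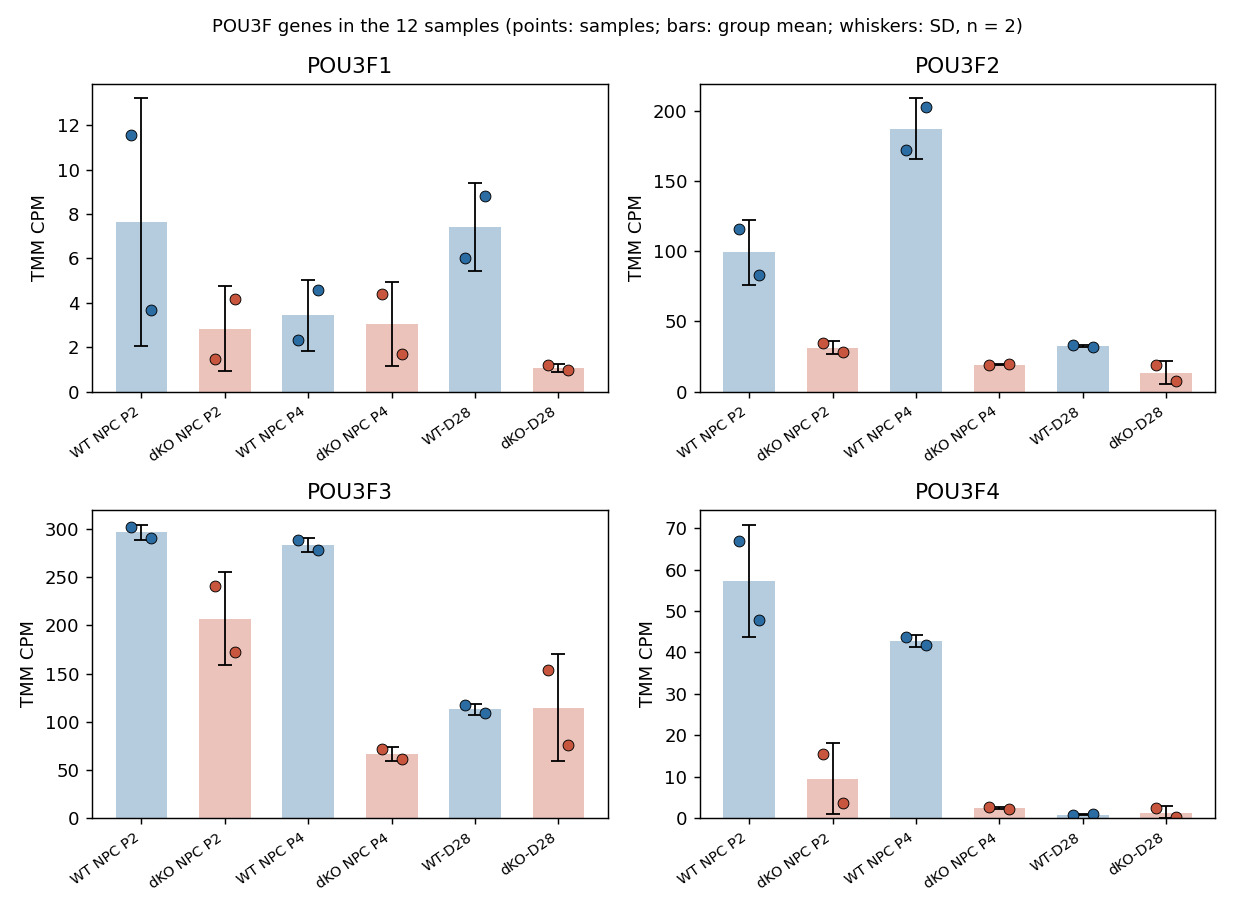
Level of each POU3F gene in trimmed-mean (TMM) normalized CPM on a linear axis that starts at 0, for the 6 groups, with WT in blue and dKO in red. Points are samples, bars are group means and whiskers are the SD of 2 samples, and POU3F2 and POU3F4 are seen at 99.4 and 57.3 CPM in WT NPCs at passage 2 against 31.3 and 9.51 CPM in dKO NPCs.

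Of the 3 genes that passed the filter, all 3 had both dKO samples below both WT samples at passage 2 and at passage 4, and 1 did at day 28. Over all 13454 genes tested, 23.6% showed the same at passage 2, 37.6% at passage 4 and 38.8% at day 28. From passage 2 to day 28 all 3 had both later samples below both earlier ones in WT and in dKO, as did 36.4% of all genes tested in WT and 23.1% in dKO. The genes were chosen on these samples, and nothing is read from these counts.

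From passage 2 NPCs to day 28 cells, POU3F4 differed most. The log2 difference, day 28 minus passage 2, in WT was -6.07 (SE 0.55) for POU3F4, a 67.0-fold lower level, against -1.58 (SE 0.28) for POU3F2 and -1.39 (SE 0.29) for POU3F3. The POU3F4 value was -5.34 after the GC and length correction. In dKO cells the log2 difference was -2.96 (SE 0.78) for POU3F4, -1.26 (SE 0.36) for POU3F2 and -0.86 (SE 0.30) for POU3F3. Without the first dKO-D28 sample these became -5.41, -1.996 and -1.45, and without the second -1.95, -0.71 and -0.42. The POU3F4 value was also -1.54 without the first and -3.69 without the second dKO sample of passage 2. WT NPCs at passage 2 serve both as the controls of the dKO NPCs and as the starting point of WT-D28, so the comparisons share samples.

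**Figure D2:**
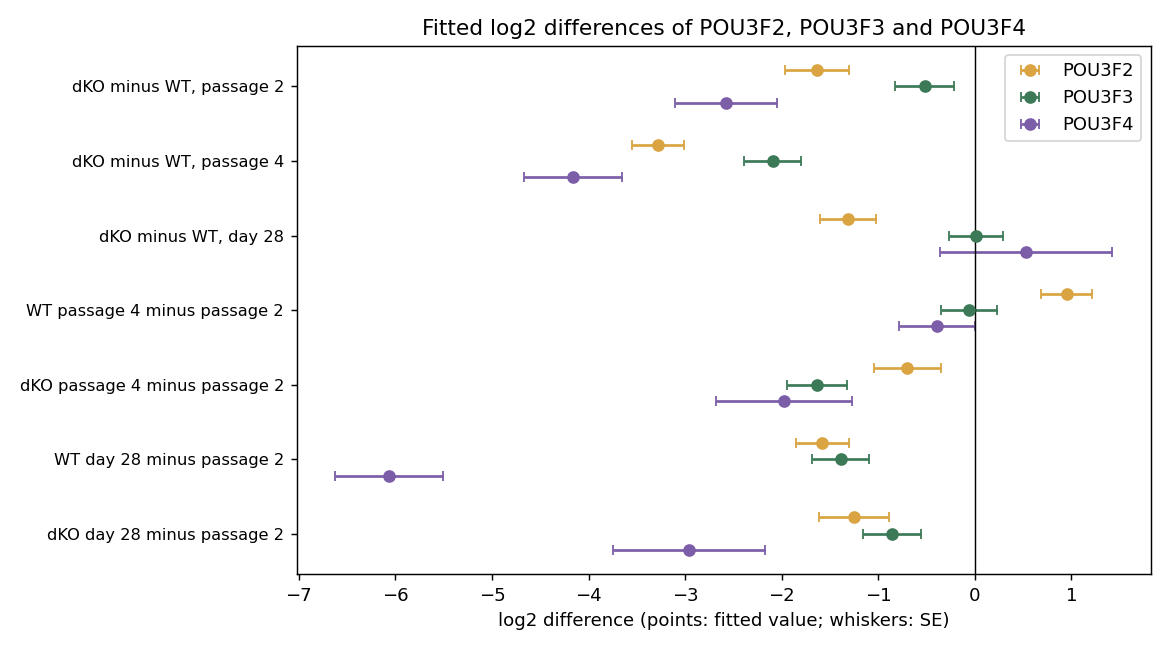
Fitted log2 differences of POU3F2, POU3F3 and POU3F4 in 7 comparisons, with points for the fitted value and whiskers for the SE. At passage 4 the 3 genes sit at -3.28, -2.09 and -4.16, whereas at day 28 only POU3F2, at -1.31, lies away from 0 by more than its SE.

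The make-up of the family, compared per exonic length, differed between the genotypes. Summed over the 4 genes, the level was 99.6 ± 11.8 CPM per kilobase (SD, n = 2) in WT against 52.9 ± 12.6 in dKO NPCs of passage 2. At passage 4 it was 110 ± 3.03 in WT NPCs and 19.4 ± 2.08 in dKO NPCs, and at day 28 it was 32.9 ± 0.670 in WT-D28 and 27.3 ± 13.6 in dKO-D28. The summed level thus separated the genotypes at both passages but not at day 28. POU3F3 made up 62.3% ± 5.72 (SD, n = 2) of the summed level in WT and 81.5% ± 0.436 in dKO NPCs at passage 2, 53.8% ± 2.91 and 71.2% ± 0.0912 at passage 4, and 71.5% ± 2.18 and 87.8% ± 1.58 at day 28. POU3F2 made up 20.3% ± 2.35 in WT and 12.2% ± 1.03 in dKO NPCs at passage 2, 34.9% ± 3.07 and 20.5% ± 2.68 at passage 4, and 20.2% ± 0.112 and 9.80% ± 1.10 at day 28. The share of POU3F3 was higher, and that of POU3F2 lower, in either dKO sample than in either WT sample of each stage, and this held for the 2 dissimilar dKO-D28 samples, at 86.6% and 88.9% for POU3F3. POU3F4 held 14.9% ± 1.77 in WT NPCs at passage 2, 10.2% ± 0.621 in WT NPCs at passage 4 and less than 1% on average in each day 28 group. These shares were not corrected for GC content. With the GC and length correction the passage 4 difference, dKO minus WT, moved from -2.09 to -2.91 for POU3F3 and from -3.28 to -3.37 for POU3F2. At passage 2 and day 28 the corrected values were -0.39 and 0.21 for POU3F3 and -1.70 and -1.30 for POU3F2. No test was made of these shares.

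**Figure D3:**
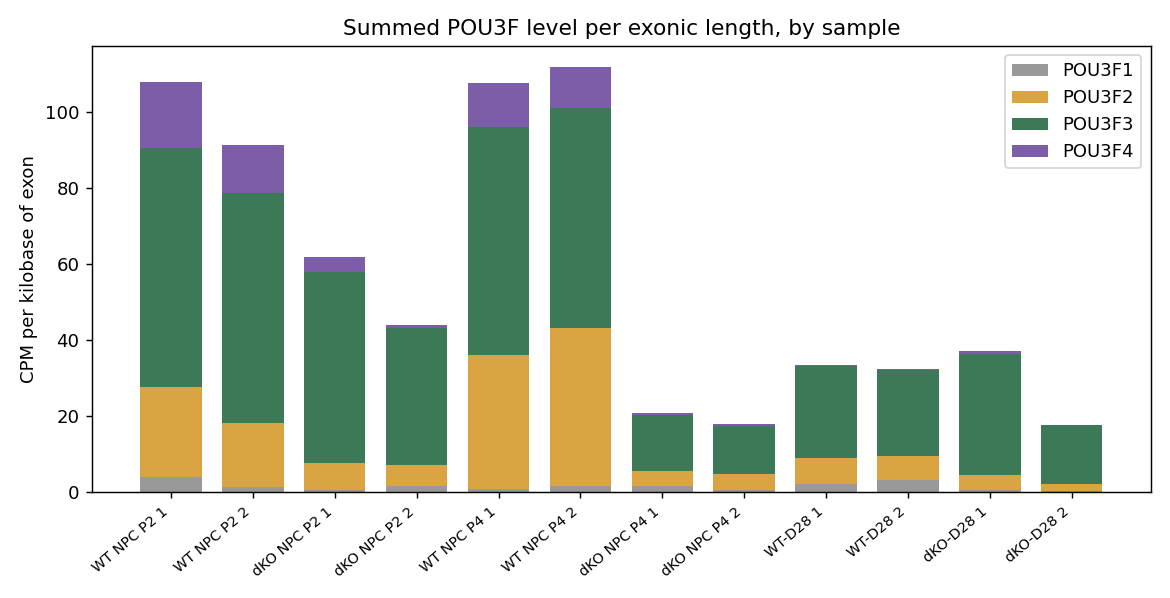
Summed POU3F level per sample in CPM per kilobase of exon, with each bar split by gene. The WT NPC samples stand between 91.2 and 112, the dKO NPC samples at passage 4 at 20.9 and 17.9, and POU3F3 is the largest segment in all 12 samples.

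The GENCODE start of POU3F3 lies close to that of a lncRNA whose level ran beside that of POU3F3. PANTR1 (chr2:104764932-104853183, minus strand) starts 104 bases from the GENCODE start of POU3F3 and is transcribed away from it, without overlapping the gene. The RefSeq start of POU3F3, behind the window that ends at chr2:104854114, lies further from PANTR1. Its levels were 99.0 and 63.9 CPM in WT NPCs and 34.8 and 22.3 CPM in dKO NPCs at passage 2. At passage 4 they were 84.3 and 82.0 CPM in WT NPCs and 5.31 and 6.76 CPM in dKO NPCs, and at day 28 they were 13.7 and 10.7 CPM in WT-D28 and 22.2 and 4.75 CPM in dKO-D28. As for POU3F3, the dKO samples were the lower ones at both passages and lay on either side of WT at day 28. PANTR1 was lower in dKO than in WT NPCs at passage 4 (log2 difference -3.78, SE 0.59, adjusted p = 0.00126 from edgeR). At passage 2 the log2 difference of -1.48 (SE 0.62) passed the unadjusted threshold only (adjusted p = 0.317 from edgeR), and that call was lost without the first WT sample, without either dKO sample, or when genes with few counts were kept in the fit. At day 28 the log2 difference was 0.09 (SE 0.56, adjusted p = 0.912 from edgeR), and without the first dKO-D28 sample it was -1.34 and passed the threshold, while without the second it was 0.87, under the fold threshold. PANTR1 was also the gene whose log2(CPM + 1) followed that of POU3F3 most closely by Pearson's r, at 0.974 over the 12 samples, which share 6 groups. The first place depends on the measure. IDH1 was close behind by r, and lay above PANTR1 by Spearman's rho (0.972 against 0.951) and by r of group means (0.983 against 0.981).

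**Figure D4:**
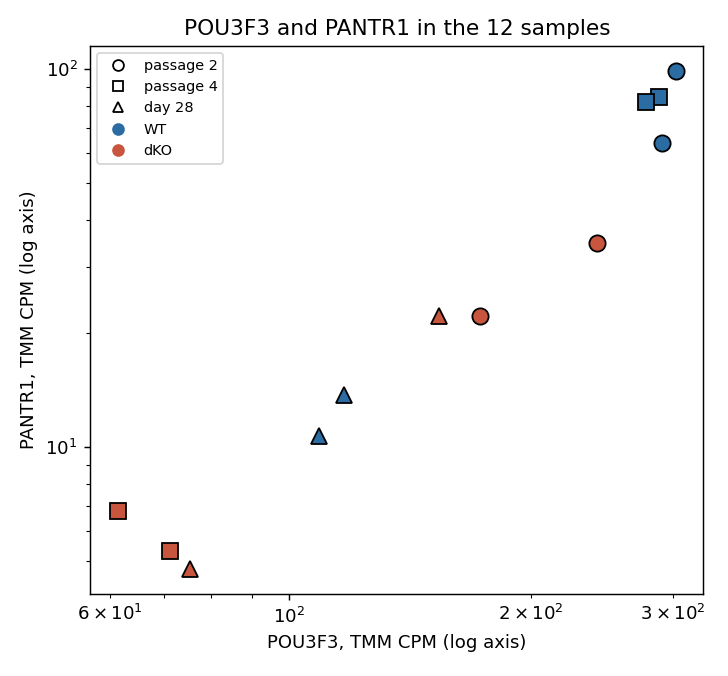
PANTR1 against POU3F3 in the 12 samples, both in TMM CPM on log axes, with WT in blue, dKO in red and the stage given by the symbol. The WT NPC samples lie at the upper right and the dKO NPC samples at passage 4 at the lower left, and the second dKO-D28 sample lies beside these at 75.5 CPM of POU3F3 and 4.75 CPM of PANTR1.

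Around the 4 genes, 72 other annotated genes start within 500 kb of a POU3F start, and 25 of them were tested. A gene was called where the unadjusted p of the edgeR quasi-likelihood test was below 0.05 and the fold change above 2. In dKO against WT, 0 of the 25 neighbours were called higher and 1, PANTR1, lower at passage 2, where 2.59% of all genes tested were called higher and 1.84% lower. At passage 4, 2 were called higher and 5 lower, beside 11.1% and 11.2% of all genes, and at day 28, 4 were called in each direction, beside 12.4% and 11.7% of all genes. LINC01159, a lncRNA that starts 19.4 kb downstream of the POU3F3 start on the opposite strand, was called in opposite directions at the later 2 stages. It was lower in dKO NPCs at passage 4 by a log2 difference of -1.36 (SE 0.38, adjusted p = 0.00791 from edgeR) and higher in dKO-D28 by 2.56 (SE 0.34, adjusted p = 9.64e-06), or by 2.13 without the first dKO-D28 sample and 2.93 without the second. The only tested neighbour of POU3F2, FBXL4, 113 kb from its start, was not called in any of the 3 genotype comparisons, with log2 differences of -0.13, 0.24 and 0.67. None of the 4 neighbours of POU3F4 had enough counts to be tested.

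**Figure D5:**
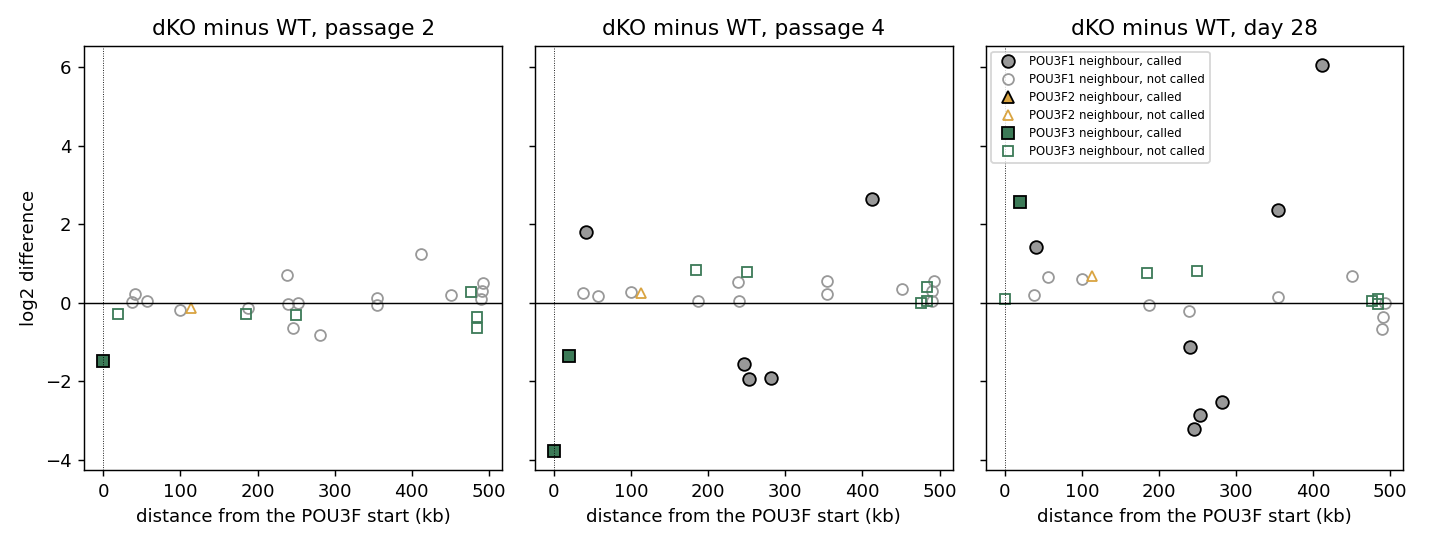
Log2 difference, dKO minus WT, of the 25 tested neighbours by the distance of their start from the POU3F start in kilobases, at passage 2, passage 4 and day 28. Filled symbols were called, and the filled square at 0 kb is PANTR1, at -1.48 and -3.78 in the first 2 panels.

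For the other fitted genes the closest followers were ZEB2 (r = 0.962), SPATA13 (0.959) and RAPGEF2 (0.955) for POU3F2, IDH1 (0.972) and SORCS1 (0.947) after PANTR1 for POU3F3, and KCNA2 (0.964), EPHA3 (0.942) and DTD2 (0.935) for POU3F4. For the scarce POU3F1 they were DDA1 (0.903), GABPB1 (0.900) and DPY19L2 (0.847). ZEB2, a zinc finger repressor of neural and crest development, was lower in dKO than in WT NPCs at passage 4 (log2 difference -2.55, SE 0.12, adjusted p = 1.71e-10 from edgeR), at 40.6 and 40.8 CPM in dKO against 225 and 252 CPM in WT. Among the POU3F genes themselves r was 0.833 between POU3F2 and POU3F3, 0.885 between POU3F2 and POU3F4 and 0.876 between POU3F3 and POU3F4, while POU3F1 reached 0.441 with POU3F2 and no more with the others. These values describe 12 points that fall into 6 pairs and carry no test.

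Of 10 other POU-domain genes, 3 had enough counts to be tested, and 0 were called at passage 2, 2 lower at passage 4, and 2 lower at day 28 in dKO against WT, where 1.84%, 11.2% and 11.7% of all genes tested were called lower. Their median log2 difference was -0.38, -1.14 and -2.09 at the 3 stages, against 0.00 (0.0035), 0.02 and 0.00 (0.0026) over all genes tested. POU2F2 (OCT2), known from B cells and also made in neurons, was called higher at day 28 in WT. It rose from passage 2 to day 28 in WT, from 36.0 and 33.8 to 149 and 141 CPM (log2 difference 2.06, SE 0.21, adjusted p = 9.49e-07 from edgeR), and was 8.02-fold lower in dKO-D28 (log2 difference -3.00, SE 0.18, adjusted p = 1.65e-09), at -3.43 without the first dKO-D28 sample and -2.63 without the second. POU6F1 was lower in dKO at passage 4 (log2 difference -2.28, SE 0.32, adjusted p = 3.19e-05 from edgeR) and at day 28 (-2.09, SE 0.27, adjusted p = 1.30e-05), where it was -2.91 without the first dKO-D28 sample and -1.498 without the second. POU2F1 (OCT1), the broadly expressed member, was not called in any genotype comparison, with log2 differences of -0.38, 0.29 and 0.41.

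Of 8 tested SOX factors that share enhancers with POU factors, 1 was lower at passage 2 (SOX3), 3 at passage 4 (SOX4, SOX11 and SOX2) and 3 at day 28, and 0 were higher at any stage, with medians of -0.25, -0.85 and -0.43. Over all genes tested, 1.84%, 11.2% and 11.7% were lower at the 3 stages and 2.59%, 11.1% and 12.4% higher. SOX4, a SOXC factor of newborn neurons, was lower in dKO than in WT NPCs at passage 4 (log2 difference -2.87, SE 0.12, adjusted p = 3.60e-11 from edgeR). SOX2, the SOXB1 factor of neural progenitors and a known partner of POU3F2, was lower in dKO at passage 4 (log2 difference -1.19, SE 0.11, adjusted p = 2.47e-07 from edgeR) and differed by -0.24 at passage 2 and -0.34 at day 28, short of the fold threshold. SOX11 was lower in dKO at passage 4 (log2 difference -1.27, SE 0.14, adjusted p = 1.28e-06 from edgeR), and SOX3 was lower in dKO at passage 2 (log2 difference -1.51, SE 0.21, adjusted p = 0.00250 from edgeR).

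Reported target genes of class III POU factors did not all move the same way. Of 12, 8 were tested, and 0 were called at passage 2, 4 lower and 1 higher at passage 4, and 3 lower and 1 higher at day 28, with medians of -0.53, -0.67 and -0.41. Of all genes tested, 11.2% were lower and 11.1% higher at passage 4, and 11.7% and 12.4% at day 28. FABP7, a radial glia lipid carrier with POU sites in its enhancer, had 1856 and 1694 CPM in WT NPCs at passage 4 and 85.8 and 78.0 CPM in dKO NPCs, and was lower in dKO (log2 difference -4.44, SE 0.59, adjusted p = 0.000926 from edgeR). At passage 2 it had 127 and 109 CPM in WT NPCs and 83.6 and 92.0 CPM in dKO NPCs. CDK5R1, an activator of CDK5 in migrating cortical neurons, was lower in dKO than in WT NPCs at passage 4 (log2 difference -2.81, SE 0.20, adjusted p = 1.05e-07 from edgeR), as was DAB1, which relays Reelin signalling there (log2 difference -2.04, SE 0.15, adjusted p = 1.19e-08). CRH, the hypothalamic corticotropin-releasing hormone, went the other way, at 16.8 and 16.4 CPM in WT NPCs and 178 and 167 CPM in dKO NPCs at passage 4 (log2 difference 3.38, SE 0.24, adjusted p = 3.39e-08 from edgeR). NES, whose neural enhancer binds POU and SOX factors, was not called between the genotypes at any stage, with log2 differences of 0.31, -0.05 and -0.59. CDK5R2, the other activator of CDK5, was lower in dKO-D28 by a log2 difference of -3.09 (SE 0.30, adjusted p = 3.37e-07 from edgeR), or -3.70 without the first dKO-D28 sample and -2.59 without the second.

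Of 5 factors that are combined with POU3F2 or POU3F4 in reprogramming, 3 were tested, and 1 was higher in dKO at passage 2, 2 were lower and 1 higher at passage 4, and 1 was lower and 1 higher at day 28. The shares of all genes tested were 2.59% higher at passage 2, 11.2% lower and 11.1% higher at passage 4, and 11.7% and 12.4% at day 28. MYT1L, a repressor of non-neuronal genes, was lower in dKO than in WT NPCs at passage 4 (log2 difference -4.64, SE 0.45, adjusted p = 1.00e-05 from edgeR), at 15 and 10 counts against 211 and 311. ZIC1, a dorsal neural factor, was higher in dKO NPCs by a log2 difference of 1.60 at passage 2 (SE 0.28, adjusted p = 0.0173 from edgeR, a call lost when only the passage 2 samples were fitted) and by 1.35 at passage 4 (SE 0.24, adjusted p = 0.00121).

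Genes of the cortical layers were called lower more often than higher in dKO at passage 4, and higher more often than lower at day 28, when 11.2% and 11.7% of all genes tested were called lower and 11.1% and 12.4% higher. Of 10 upper-layer genes tested, 5 were lower and 1 higher in dKO at passage 4, and 1 lower and 5 higher at day 28, with 0 called at passage 2. Of 8 deep-layer genes tested, 6 were lower and 1 higher at passage 4, 0 lower and 3 higher at day 28, and 1 was higher at passage 2. BCL11B, a deep-layer factor, was lower in dKO than in WT NPCs at passage 4 (log2 difference -4.78, SE 0.23, adjusted p = 1.71e-10 from edgeR), as was TBR1 (log2 difference -3.21, SE 0.19, adjusted p = 1.75e-09). From passage 2 to passage 4, BCL11B went from 3.86 and 3.67 to 91.2 and 110 CPM in WT NPCs. In dKO NPCs it went from 1.48 and 2.09 to 4.38 and 2.90 CPM. TBR1 went from 6.43 and 3.67 to 242 and 264 CPM in WT NPCs. In dKO NPCs TBR1 went from 4.44 and 2.79 to 30.2 and 24.4 CPM. Of 8 ventral forebrain and hypothalamic genes tested, 3 were lower and 1 higher at passage 2, 4 lower at passage 4, and 7 lower at day 28, beside 1.84%, 11.2% and 11.7% of all genes called lower. DLX2, a subpallial homeobox factor, was lower in dKO than in WT at all 3 stages, with log2 differences of -2.27 (SE 0.39, adjusted p = 0.00688 from edgeR), -3.29 (SE 0.41, adjusted p = 1.49e-05) and -4.29 (SE 0.28, adjusted p = 1.47e-08). The last was -4.47 without the first dKO-D28 sample and -4.10 without the second.

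Across the 7 lists together, 48 of 67 genes were tested. In dKO against WT, 3 were higher and 4 lower at passage 2, 4 higher and 26 lower at passage 4, and 10 higher and 17 lower at day 28. Over all genes tested, 2.59% were called higher and 1.84% lower at passage 2, 11.1% and 11.2% at passage 4, and 12.4% and 11.7% at day 28. The day 28 counts were 13 and 19 without the first dKO-D28 sample and 8 and 19 without the second. From passage 2 to day 28 in WT, 19 were higher and 9 lower, beside 12.9% and 11.5% of all genes tested. From passage 2 to day 28 in dKO, 8 were higher and 5 lower, beside 4.01% and 3.14% of all genes. The median log2 difference of the 48 genes, dKO minus WT, was -0.36 at passage 2, -1.17 at passage 4 and -0.33 at day 28.

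Markers of other cell types moved with these comparisons. The 9 neuron markers summed to between 4209 and 4763 CPM in WT NPCs at passage 4 against 934 to 962 CPM in dKO NPCs, to between 3650 and 3665 CPM in WT-D28 against 647 to 1217 CPM in dKO-D28, and to between 1081 and 1429 CPM in the 4 passage 2 samples. Of these markers NEFL went the other way at passage 4, at 146 and 143 CPM in dKO against 63.5 and 69.1 CPM in WT NPCs. The 6 astrocyte markers summed to between 1989 and 2201 CPM in WT NPCs at passage 4 against 33.2 to 40.3 CPM in dKO NPCs. At day 28 they summed to between 411 and 413 CPM in WT-D28 against 32.7 to 38.2 CPM in dKO-D28. Most of the WT sums came from SLC1A3, at 1755 and 1917 CPM at passage 4 and 261 and 263 CPM at day 28. GFAP had 21.4 and 23.3 CPM in WT NPCs at passage 4, so the sums mainly follow 1 gene. At passage 2 the sums were 104 to 134 CPM in WT and 34.8 to 52.5 CPM in dKO NPCs. The 8 mesenchymal markers summed to between 896 and 1092 CPM in dKO NPCs at passage 2 and 1731 to 1738 CPM at passage 4, against 152 to 397 and 218 to 237 CPM in WT NPCs, and at day 28 to between 294 and 406 CPM in dKO-D28 against 133 to 139 CPM in WT-D28. Within that sum COL3A1 was called lower at day 28, at 18.4 and 7.22 CPM in dKO-D28 against 51.4 and 54.8 CPM in WT-D28. The 7 neural crest markers reached 60.4 to 60.7 CPM in dKO NPCs at passage 4 and 24.1 to 115 CPM in dKO-D28, against at most 15.4 CPM in any WT sample. Of these markers, SOX10 and FOXD3 had only 20 and 6 counts over the 12 samples. In dKO NPCs at passage 4, PAX3 had 31.6 and 32.6 CPM and SNAI2 had 22.4 and 21.3 CPM. TFAP2A and TFAP2B had 31.8 and 47.5 CPM in the second dKO-D28 sample, against 5.73 and 6.45 CPM in the first. The 7 oligodendrocyte lineage markers summed to between 23.3 and 70.4 CPM in all groups, with MOG at 0 counts throughout. Single members differed, and PDGFRA was called higher in dKO at all 3 stages, at 9.23 and 11.4 against 1.65 and 1.01 CPM at passage 4. OLIG1, too scarce to be tested, had 1.67 and 0.761 CPM in dKO-D28 against 10.9 and 8.03 CPM in WT-D28. The 6 pluripotency markers summed to between 172 and 173 CPM in WT and 140 to 154 CPM in dKO NPCs at passage 2, to between 18.2 and 19.1 CPM in WT and 77.8 to 80.9 CPM in dKO NPCs at passage 4, and to between 16.8 and 18.9 CPM in WT-D28 against 145 to 163 CPM in dKO-D28. All 3 that were tested, DNMT3B, LIN28A and L1TD1, were called higher in dKO at passage 4 and at day 28 and none at passage 2, while POU5F1 and NANOG were at 0 counts throughout. POU3F2 was highest in WT NPCs at passage 4, where the neuron and astrocyte marker sums were highest. In WT-D28 the neuron markers summed to 3650 to 3665 CPM and POU3F2 was at 32.5 ± 0.843 CPM (SD, n = 2). A sum does not tell kinds of neuron apart. The part of these markers in the POU3F differences was not tested.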

How the data were processed

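RNA of 12 H1 samples had been made into libraries with a TruSeq RNA kit. The authors aligned reads to hg38 with HISAT2 2.0.4 and counted them per Ensembl gene with SAMtools 1.3.1 and HTSeq 0.6.0. The deposited values are raw counts per gene, and neither the annotation release nor the strand setting is given in the sources used here. The members and gene lists were chosen with earlier results of these data known, and some genes are not reported here.

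Symbols, coordinates and exonic lengths came from GENCODE release 44, which held 98.7% of the identifiers. The 13454 of 58302 genes whose counts averaged 20 or more were fitted with edgeR 4.0.16 (TMM, robust quasi-likelihood, 6 group means, no covariate), and called, as in the study's methods, where the fold change exceeded 2 and p before adjustment was under 0.05. Only the filter and thresholds are shared. The study corrected for GC content and gene length with EDASeq and tested with DESeq, whereas the main values here carry no such correction. Adjusted p-values are Benjamini-Hochberg over all genes tested. Exact permutation of 2 against 2 samples cannot go below p = 0.333. Likeness was Pearson's r of log2(CPM + 1). Replicates are not stated to be separate cultures, so p-values measure the spread between these samples, which may be technical. No pair of files was identical, and intervals or limits from counts cover counting error only. The edgeR script was tested on simulated data. Alternatives were DESeq2 1.42.0, its size factors, other filters, a replicate block, a GC and length correction and leaving out each sample. The POU3F1 values with a dKO-D28 sample left out were added after seeing the data. Named genes were the POU3F genes, at most 3 called genes per list and direction by size of change, any other POU-domain or reported target gene, called neighbours, the 3 closest genes by r, and KDM6A and KDM6B. FBXL4 was named outside this rule, after its values were seen, as the only tested neighbour of POU3F2.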

Additional observations from a re-analysis of the deposited data

Results flagged for a closer look

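No group had the 4 samples that a check for outlying samples needs. The entries below are genes named in the report whose dKO minus WT difference itself differed between stages by an interaction term of the edgeR fit (fold above 2 and an adjusted p below 0.05), and the POU3F genes were not tested.

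Between passage 2 and passage 4 the genotype difference moved down on the log2 scale for FABP7 by -4.02 (SE 0.87, adjusted p = 0.0192), BCL11B by -3.73 (SE 0.87, adjusted p = 0.00571) and TBR1 by -2.82 (SE 0.75, adjusted p = 0.0124). It also moved down for SOX4 by -2.55 (SE 0.16, adjusted p = 6.48e-08), SOX11 by -1.19 (SE 0.19, adjusted p = 0.000372), POU6F1 by -2.14 (SE 0.58, adjusted p = 0.0155) and CDK5R1 by -2.07 (SE 0.35, adjusted p = 0.000901). DAB1 followed at -2.12 (SE 0.24, adjusted p = 1.45e-05), as did ZEB2, the gene closest to POU3F2 by r, at -1.71 (SE 0.18, adjusted p = 7.78e-06).

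Between passage 2 and day 28 it moved down for POU2F2 by -2.41 (SE 0.34, adjusted p = 5.69e-05), POU6F1 by -1.95 (SE 0.56, adjusted p = 0.0159), SOX4 by -1.09 (SE 0.16, adjusted p = 9.91e-05) and CDK5R1 by -1.59 (SE 0.35, adjusted p = 0.00372). ZIC1 moved by -1.55 (SE 0.36, adjusted p = 0.00998) and DLX2 by -2.02 (SE 0.53, adjusted p = 0.0111). It moved up for LINC01159, beside POU3F3, by 2.85 (SE 0.51, adjusted p = 0.000509). For TBR1 the value was 6.64 (SE 0.95, adjusted p = 7.68e-05), with 1 and 4 counts in the WT-D28 samples, and for CRH it was 5.41 (SE 1.49, adjusted p = 0.0131), with 0 and 3 counts there, so both sizes depend on the prior count of the fit. With either dKO-D28 sample left out, an alternative chosen after seeing the data, these day 28 values kept their sign and passed both thresholds, except that of SOX4, which was -0.98 without the second sample, just under the fold threshold.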

How the results depend on the processing

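The alternatives gave 375 values for the 21 POU3F differences and the 10 counts of listed genes, of which 343 stayed within the spread between replicates or within 1.5 times the count. That spread comes from the same 2 samples per group, so leaving out 1 of them seldom moves a POU3F value beyond it. POU3F2 at day 28, dKO minus WT, ran from -2.04 to -0.76 in this way and still counted as within. The 343 is thus no measure of how far the POU3F values depend on single samples. POU3F2, POU3F3 and POU3F4 were lower in dKO than in WT NPCs at both passages under every alternative that could be fitted for them. A minimum of 10 counts in every sample dropped POU3F1 and POU3F4. Depth limits POU3F1 at passages 2 and 4 and POU3F4 at day 28. Except for the filters and left-out samples, which change the genes or samples fitted, the cause of the changes below was not tested.

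With the GC and length correction, without and with the replicate block, POU3F3 was at -2.91 and -2.93 for dKO minus WT at passage 4, -1.69 and -1.70 for WT day 28 minus passage 2, 0.40 and 0.40 for WT passage 4 minus passage 2, and -2.13 and -2.12 for dKO passage 4 minus passage 2. POU3F4 was at -4.35 and -4.39 for dKO minus WT at passage 4 and -5.34 and -5.35 for WT day 28 minus passage 2. With every gene of at least 1 count, POU3F3 was at -1.28 for WT day 28 and 0.0077 for WT passage 4, each minus passage 2. Leaving out 1 sample gave POU3F4 a range of -1.91 to 1.53 at day 28 and of -5.41 to -1.54 for dKO day 28 minus passage 2.

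The same wider filter called 9 listed genes lower at passage 2 and 7 higher at passage 4 in dKO, and 15 lower in WT at day 28. At least 10 counts in every sample left 1 lower at passage 2, 12 lower at passage 4, and 5 higher and 7 lower at day 28 in dKO against WT, 7 higher from passage 2 to day 28 in WT, and 2 higher and 3 lower in dKO. Calls at an adjusted p below 0.05 left 2 lower at passage 2 and 5 higher from passage 2 to day 28 in dKO. Leaving out 1 sample gave 1 to 3 higher and 3 to 7 lower at passage 2, and 4 to 7 higher and 5 to 9 lower from passage 2 to day 28 in dKO.

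Same-numbered samples did not deviate together (correlations of -0.058 to 0.194 over 15 pairs), so the numbers were not taken to pair the samples. With the number as a replicate block POU3F2 was at -1.64, -3.30 and -1.33 in the 3 genotype comparisons, and the calls over all genes at passage 2 went from 596 to 615.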
